A study of Rattus norvegicus with 12 samples.

Results

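Lcn2, Orm1, C3, Steap4, Tnfaip6 and Serpina3n are 6 genes of the acute phase and complement response, described here in the islets of rat offspring born to lean dams or to dams with diet-induced gestational diabetes mellitus (GDM). They were picked from the deposited table because of high values in the low-fat-weaned offspring of GDM dams that were not seen on the high-fat-and-sucrose diet, so the pattern that chose them is described below and is not tested. They are 6 of 17407 gene entries, and all 6 passed the filter on low values that left 12339 entries for testing. Orm1 is near 0 outside the group it was picked for and passed the filter through that group alone.

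The study asked how GDM of the dam and the offspring's own diet act on the islets of the offspring. Sprague Dawley dams, 6 per diet, ate a low-fat diet (LF, 10% fat) or a high-fat and sucrose diet (HFS, 45% fat) from 6 weeks before mating until the end of suckling, and the HFS dams are the GDM group. All sires ate LF, and pups were weaned onto LF or HFS for 12 weeks. Islets were picked by hand at 15 weeks of age, and RNA depleted of ribosomal RNA was sequenced in 12 libraries, 3 per group. The Lean-LF group came from lean dams and ate LF after weaning, and the Lean-HFS group came from lean dams and ate HFS. The GDM-LF group came from GDM dams and ate LF, and the GDM-HFS group came from GDM dams and ate HFS. All animals were of 1 strain, and no introduced allele is named. GDM was induced by diet, so the diet of the dam and its diabetes cannot be told apart. The labels used here give neither the litter nor the sex behind a library, so the p-values measure the spread between these libraries, and littermates cannot be recognised.

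The acute phase response is the change in secreted proteins that follows infection, injury or inflammation, driven mainly by interleukin 6 and interleukin 1 acting through the factors STAT3, C/EBP and NF-kB. The liver is its main source, but epithelial, stromal, fat and islet cells can make several of the same proteins. Complement is a cascade of plasma proteins whose pathways converge on the cleavage of C3 and go on to the cleavage of C5 and the assembly of a membrane pore, and the cleaved fragments tag particles and attract immune cells.

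The 250 bases before the RefSeq start site of each of the 6 genes (build GRCr8) were searched on both strands for letters bound by those factors and by AP-1. The C/EBP letters TTGCNNAA were found in 4 of the 6 windows, those of Lcn2, Orm1, C3 and Steap4, and in 9.22% of 33469 rat promoter windows. These 4 sequences are shown because the same 4 genes had all GDM-LF libraries above all GDM-HFS libraries in the values below. The 6 genes were picked for that pattern, so nothing is read from the match, and whether the letters bear on it was not tested. The coordinates are chr3:36081781-36082030 on the minus strand for Lcn2, chr5:81788259-81788508 on the plus strand for Orm1, chr9:2201340-2201589 on the minus strand for C3 and chr4:27054770-27055019 on the minus strand for Steap4. Capitals mark a match to C/EBP, NF-kB, STAT or AP-1 letters.
Lcn2: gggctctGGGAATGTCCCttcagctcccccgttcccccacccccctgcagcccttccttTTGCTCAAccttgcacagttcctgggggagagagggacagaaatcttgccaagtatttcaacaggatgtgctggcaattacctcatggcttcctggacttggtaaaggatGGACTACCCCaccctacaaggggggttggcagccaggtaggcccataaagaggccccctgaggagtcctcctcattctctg
Orm1: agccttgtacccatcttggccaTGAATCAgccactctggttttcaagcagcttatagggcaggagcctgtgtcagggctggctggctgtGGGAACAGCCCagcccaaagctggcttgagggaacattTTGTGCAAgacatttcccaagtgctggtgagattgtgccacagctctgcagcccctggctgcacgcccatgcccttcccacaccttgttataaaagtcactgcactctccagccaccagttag
C3: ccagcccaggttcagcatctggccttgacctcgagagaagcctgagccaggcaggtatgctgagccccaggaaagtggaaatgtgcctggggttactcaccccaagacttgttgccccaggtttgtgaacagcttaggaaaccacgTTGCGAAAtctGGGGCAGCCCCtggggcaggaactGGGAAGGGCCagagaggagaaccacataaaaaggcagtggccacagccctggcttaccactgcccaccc
Steap4: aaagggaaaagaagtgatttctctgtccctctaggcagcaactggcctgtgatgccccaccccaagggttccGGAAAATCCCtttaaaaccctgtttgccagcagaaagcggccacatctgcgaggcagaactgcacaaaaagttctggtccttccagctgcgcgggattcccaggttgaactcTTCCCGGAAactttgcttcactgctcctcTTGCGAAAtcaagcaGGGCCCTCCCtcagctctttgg

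In Lcn2 the C/EBP match spans positions -191 to -184 from the start site, in Orm1 -123 to -116, in C3 -104 to -97 and in Steap4 -37 to -30. The NF-kB letters, GGG and CC with 5 bases of any kind between them, were found in 5 of the 6 windows, all except that of Tnfaip6, but they are loose and were found in 42.3% of all windows. Where they matched both strands 1 base apart, the capitals run over both matches. The STAT letters TTCNNNGAA were found in the windows of Steap4 and Serpina3n (7.67% of all windows) and the AP-1 letters TGANTCA in those of Orm1 and Tnfaip6 (6.34%). A match is a description of the letters and not a bound site.

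**Figure D1:**
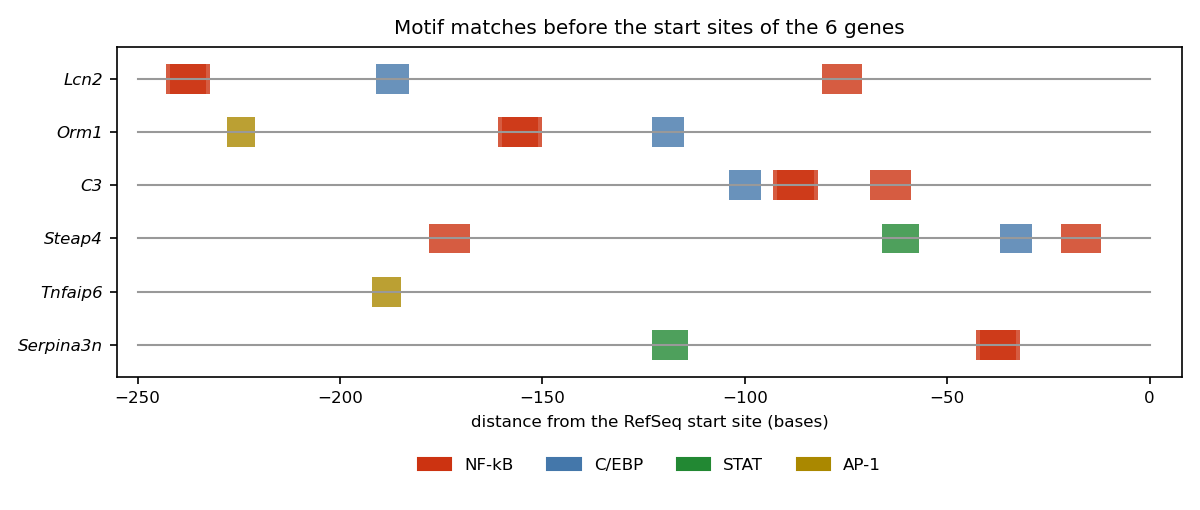
Positions of letter matches in the 250 bases before the RefSeq start sites of the 6 genes (x axis, distance from the start site in bases; 1 line per gene; colours for the 4 kinds of letters). C/EBP matches are on the lines of Lcn2, Orm1, C3 and Steap4 at different distances, and NF-kB matches are on every line except that of Tnfaip6.

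Levels are given as scaled values, which are reads over the exons of a gene divided by the depth of the library and then by a scaling factor for each library. They are not divided by gene length. The libraries held between 11469290 and 27492858 reads over genes, and ribosomal RNA took 1.84% to 39.0% of these. That share was 24.7% to 39.0% in Lean-HFS, 1.84% to 4.34% in GDM-HFS, 1.84% to 30.4% in Lean-LF and 7.0% to 8.55% in GDM-LF. It did not overlap between the HFS groups, nor between GDM-LF and GDM-HFS. All 8 beta cell markers looked at, among them the insulin genes, were above 0 in every library. GDM-LF 2 stands apart in acinar markers and GDM-LF 1 in stellate and fibroblast markers, and the values are given beside the results below. The titles of GDM-LF 1, GDM-LF 2 and GDM-HFS 3 carry the letter K, of no stated meaning, and the other 9 carry G.

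Lipocalin 2 is a secreted protein that binds bacterial iron carriers and is a classical NF-kB and C/EBP target. Its gene Lcn2 (NM_130741, rn5 chr3:16763059-16766404, minus strand, 866 exonic bases) had scaled values of 211, 600 and 330 in Lean-LF and 251, 136 and 282 in Lean-HFS. The values were 1923, 3068 and 495 in GDM-LF and 255, 381 and 168 in GDM-HFS. GDM-LF 1 and GDM-LF 2 lay above all other libraries, but GDM-LF 3 lay below Lean-LF 2, so the GDM-LF and Lean-LF libraries overlapped. All 3 GDM-LF libraries were above the 3 GDM-HFS libraries. The mean was 1828 ± 1289 (SD, n = 3) in GDM-LF against 380.5 ± 199.3 in Lean-LF, a ratio of 4.81 (3.18 with GDM-LF 1 and GDM-LF 3 alone), and 268.1 ± 106.7 in GDM-HFS. The other 3 groups had means of 222.8 to 380.5 with overlapping libraries.

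Orosomucoid 1, or alpha-1-acid glycoprotein, is a plasma carrier protein that the liver releases in the acute phase. Orm1 (NM_053288, rn5 chr5:83293902-83297054, plus strand, 761 exonic bases) had 22, 50 and 15 reads in the GDM-LF libraries, which are scaled values of 8.28, 14.03 and 4.37. It had 0, 2 and 5 reads in Lean-LF, 0, 2 and 0 in Lean-HFS and 0, 2 and 0 in GDM-HFS. Every GDM-LF library was above the highest of the other 9, which reached a scaled value of 0.869 in Lean-LF 2. No ratio of means is given for Orm1 because the other groups rest on so few reads. Its log2 differences below are set in large part by the pseudocount and measure no fold, and the mean level in GDM-LF, 8.89 ± 4.86 (SD, n = 3), was itself low.

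Complement C3 is the central component of the complement cascade. Its gene (NM_016994, rn5 chr9:8728465-8754412, plus strand in that build, 5030 exonic bases) had scaled values of 16.2, 53.9 and 31.9 in Lean-LF and 33.6, 10.7 and 71.9 in Lean-HFS. The values were 427, 1041 and 83.0 in GDM-LF and 73.7, 54.2 and 26.0 in GDM-HFS. All 3 GDM-LF libraries were above the other 9, although GDM-LF 3 exceeded the highest of them, GDM-HFS 1, by only a small margin. The mean was 517 ± 485 (SD, n = 3) in GDM-LF and 34.0 ± 18.9 in Lean-LF, a ratio of 15.2, and the ratio of GDM-LF to GDM-HFS was 10.1. With GDM-LF 1 and GDM-LF 3 alone, the ratio over Lean-LF was 7.50. Within GDM-LF the highest library had 12.5 times the value of the lowest, the widest spread in that group among the 6 genes.

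Serpina3n encodes a secreted inhibitor of serine proteases and is a rodent counterpart of alpha-1-antichymotrypsin. It (NM_031531, rn5 chr6:137283367-137290901, plus strand, 2050 exonic bases) had scaled values of 1225, 1445 and 1377 in Lean-LF and 1809, 952 and 1269 in Lean-HFS. The values were 1276, 9425 and 1111 in GDM-LF and 1231, 1293 and 3494 in GDM-HFS. Only GDM-LF 2 was above the other 9 libraries, and it held 79.8% of the summed value of its group. GDM-LF 1 and GDM-LF 3 lay within the range of the lean groups, and their mean was 0.885 times that of Lean-LF. The ratio of 2.92 between the GDM-LF and Lean-LF means thus rests on GDM-LF 2, and the group overlapped with each of the others. Serpina3n belongs to a cluster of related serpins and how reads that fit several copies were counted is not stated by the labels or headers, so it is uncertain as a single gene. The nearest annotated entry, LOC299282, is 11103 bases away with a mean scaled value of 8.76, and no annotated entry overlapped any of the 6 genes.

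Tnfaip6 encodes TSG-6, a secreted hyaluronan-binding protein induced by tumour necrosis factor and interleukin 1. It (NM_053382, rn5 chr3:42649266-42663190, plus strand, 1261 exonic bases) had scaled values of 8.52, 11.3 and 20.3 in Lean-LF and 13.0, 21.9 and 37.3 in Lean-HFS. The values were 94.8, 94.9 and 37.9 in GDM-LF and 13.9, 29.0 and 60.0 in GDM-HFS. All GDM-LF libraries were above all Lean-LF libraries. GDM-HFS 3 was above GDM-LF 3, so the 2 groups from GDM dams overlapped. The means were 75.9 ± 32.9 (SD, n = 3) in GDM-LF, 34.3 ± 23.5 in GDM-HFS, 24.1 ± 12.3 in Lean-HFS and 13.4 ± 6.14 in Lean-LF. Tnfaip6 was the gene least dominated by 1 library, with 41.7% of the GDM-LF sum in GDM-LF 2.

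Steap4 encodes a membrane metalloreductase that reduces iron and copper and is known from inflamed fat tissue. It (NM_001044265, rn5 chr4:23040108-23062780, minus strand, 3079 exonic bases) had 6, 10 and 6 reads in Lean-LF, 4, 6 and 12 in Lean-HFS, 20, 95 and 24 in GDM-LF and 2, 8 and 2 in GDM-HFS. The scaled values were 7.53, 26.7 and 6.99 in GDM-LF, and in the other 9 libraries they lay between 0.450 and 5.46. The GDM-LF libraries did not overlap with any other group, but GDM-LF 1 and GDM-LF 3 were close to the highest of the rest, Lean-HFS 3. The mean was 13.7 ± 11.2 (SD, n = 3) in GDM-LF, 2.31 ± 1.79 in Lean-LF, 3.22 ± 1.97 in Lean-HFS and 1.11 ± 0.637 in GDM-HFS.

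**Figure D2:**
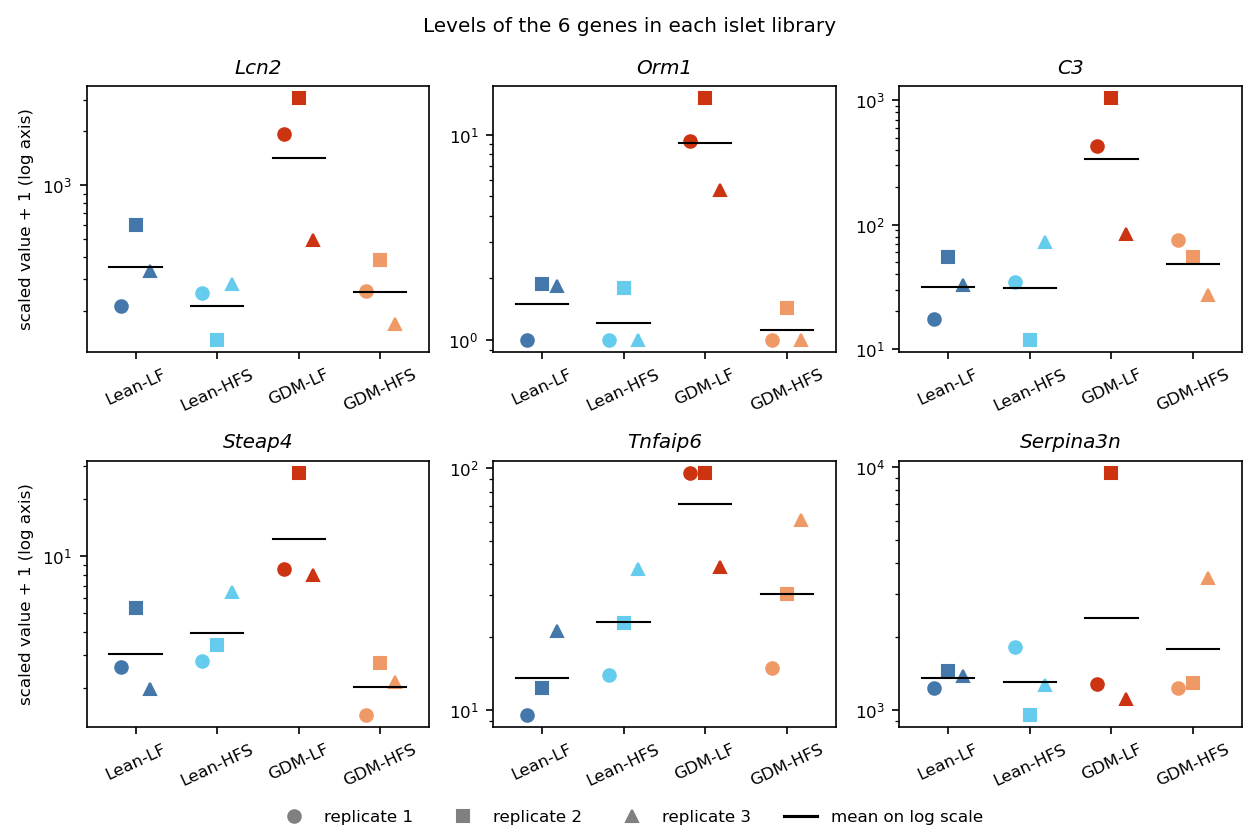
Scaled value + 1 (log axis) of the 6 genes in each of the 12 libraries, with symbols for the replicate number and a line at the mean on the log scale. GDM-LF 2 is the highest library for all 6 genes, and in Serpina3n it is the only GDM-LF library above the rest.

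The level differed widely between the 6 genes. Divided by exonic length, the Lean-LF means were 658 per kilobase for Serpina3n, 439 for Lcn2, 10.6 for Tnfaip6, 6.76 for C3, 0.752 for Steap4 and 0.745 for Orm1. In GDM-LF, Lcn2 (2111 per kilobase) had a higher mean than Serpina3n (1921 per kilobase), and C3 (103 per kilobase) a higher mean than Tnfaip6 (60.2 per kilobase). With GDM-LF 1 and GDM-LF 3 alone, C3 (50.7 per kilobase) was below Tnfaip6 (52.6 per kilobase), while Lcn2 (1396 per kilobase) stayed above Serpina3n (582 per kilobase). Serpina3n and Lcn2 were therefore the abundant genes of the set in every group, and Orm1 and Steap4 the rare ones.

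The 3 GDM-LF libraries were ordered alike across the set. GDM-LF 2 was the highest of the 12 libraries for 6 of 6 genes, GDM-LF 1 was the second highest for 5 of 6, and GDM-LF 3 was the lowest of its group for 6 of 6. How many of all tested genes have this order of libraries was not counted, so it cannot be called particular to the set. The GDM-LF libraries were all above the other 9 for 3 of 6 genes (Orm1, C3 and Steap4), as they were for 1.34% of all tested genes. They were all above Lean-LF for 4 of 6 (the same 3 and Tnfaip6, 12.9% of all tested genes) and all above GDM-HFS for 4 of 6 (the same 3 and Lcn2, 6.61%). Nothing is read from this order or from these shares, since the genes were picked for this pattern.

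On the log2(scaled value + 1) scale, on which fold changes of low genes are understated, the difference GDM-LF minus Lean-LF was 3.41 ± 0.82 (SE) for C3 and 2.59 ± 0.52 for Orm1. It was 2.39 ± 0.54 for Tnfaip6, 2.04 ± 0.57 for Lcn2, 2.03 ± 0.58 for Steap4 and 0.82 ± 0.64 for Serpina3n. The median over the 6 was 2.21, beside 0.05 over all tested genes. For GDM-HFS minus Lean-HFS the differences were 0.64 for C3, 0.45 for Serpina3n, 0.38 for Tnfaip6, 0.26 for Lcn2, -0.11 for Orm1 and -0.95 for Steap4. The median on HFS was 0.32, beside -0.01 over all tested genes, and Steap4 was lower in GDM-HFS than in Lean-HFS by more than its SE of 0.58. The sign of that median is not fixed: it was -0.33 with the rRNA entry Rn45s as a covariate, -0.08 with the acinar level as a covariate and -0.03 without GDM-HFS 3. With Rn45s as a covariate the Tnfaip6 difference on HFS was -0.9957 ± 0.76. The share of ribosomal RNA separates the HFS groups completely, so it and the dam cannot be told apart there.

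Between the weaning diets in the offspring of GDM dams (GDM-HFS minus GDM-LF), the log2 difference was -3.01 for Orm1, -2.80 for C3, -2.60 for Steap4, -2.49 for Lcn2, -1.24 for Tnfaip6 and -0.42 for Serpina3n. This comparison shares the GDM-LF libraries with the maternal comparison on LF, so the 2 sets of values are not independent. The share of ribosomal RNA did not overlap between GDM-LF (7.0% to 8.55%) and GDM-HFS (1.84% to 4.34%). That share and the weaning diet therefore cannot be told apart in offspring of GDM dams. The interaction, which is the maternal difference on HFS minus that on LF, was -2.98 ± 0.82 for Steap4, -2.78 ± 1.16 for C3, -2.70 ± 0.74 for Orm1 and -2.003 ± 0.763 for Tnfaip6. It was -1.78 ± 0.80 for Lcn2 and -0.37 ± 0.90 for Serpina3n. All of these contrasts were used in picking the genes and carry no test.

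Lean-HFS against Lean-LF is the only contrast that did not enter the picking, although both lean groups served as references in it and their libraries are therefore not independent of the choice. None of the 6 genes passed here, with limma, edgeR or DESeq2, and none had an unadjusted limma p under 0.05. limma called 0% of all 12339 tested genes in this comparison, with 2.18% at an unadjusted p under 0.05. The log2 differences were -0.71 ± 0.57 (SE) for Lcn2, -0.31 ± 0.52 for Orm1, -0.02 ± 0.82 for C3 and 0.38 ± 0.58 for Steap4. They were 0.77 ± 0.54 for Tnfaip6 and -0.05 ± 0.64 for Serpina3n, and the Benjamini-Hochberg adjusted p from limma was 1 for each. The SEs are large, so differences of around 1 on the log2 scale were not detectable with this fit. They rest on a spread shared by the 4 groups, so the GDM-LF libraries that the genes were picked on also set these SEs and p-values. For Serpina3n the SD of the scaled values was 113 in Lean-LF and 433 in Lean-HFS, but 4753 in GDM-LF.

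**Figure D3:**
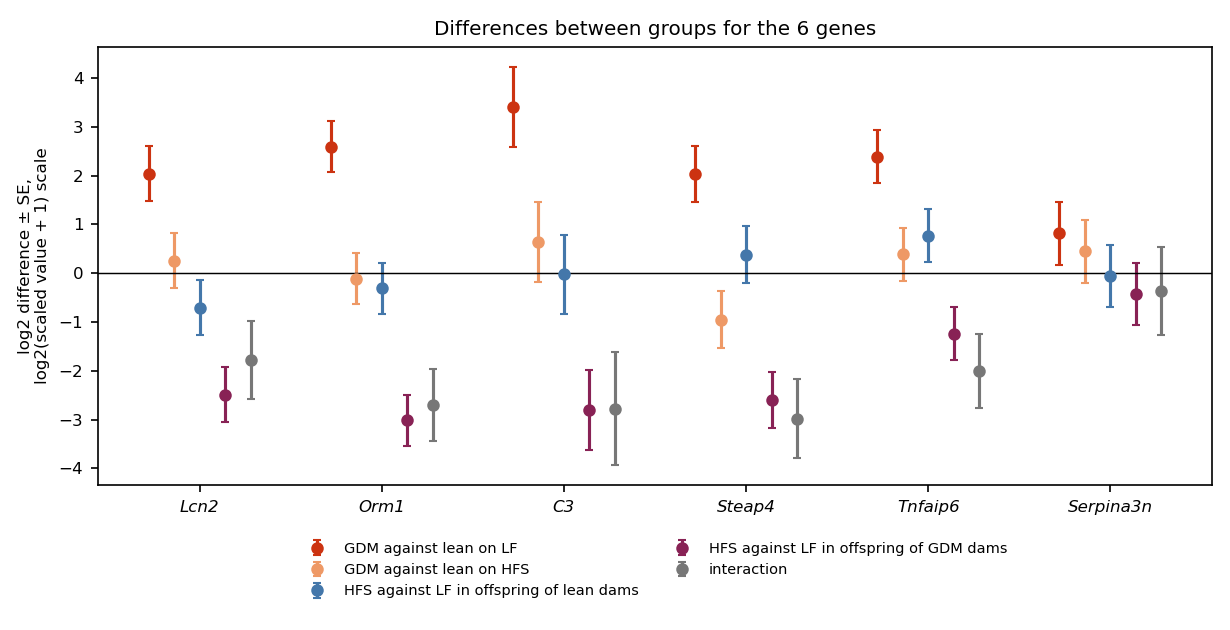
Differences between groups on the log2(scaled value + 1) scale for each of the 6 genes (points, with bars of 1 SE from the fit over all 12 libraries), for 5 comparisons. The red points (GDM against lean on LF) run from 0.82 to 3.41, while those for the HFS diet lie between -0.95 and 0.64.

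GDM-LF 2 and the K libraries carried part of these differences. Without GDM-LF 2, the GDM-LF minus Lean-LF difference was 2.59 for C3, 2.23 for Orm1, 2.17 for Tnfaip6, 1.49 for Lcn2, 1.45 for Steap4 and -0.18 for Serpina3n. Without the 3 K libraries, when GDM-LF 3 alone stands for its group and is assumed to vary like the others, it was 1.83 for Orm1, 1.52 for Tnfaip6, 1.42 for C3, 1.40 for Steap4, 0.51 for Lcn2 and -0.28 for Serpina3n. Without those libraries, the HFS minus LF difference in offspring of GDM dams was -2.17 for Orm1 and -2.01 for Steap4, but -0.88 for Tnfaip6, -0.66 for Lcn2, -0.39 for C3 and 0.18 for Serpina3n. The K libraries hold no offspring of lean dams, so no maternal comparison can be made among them. Within the K libraries GDM-HFS 3 was below both GDM-LF 1 and GDM-LF 2, except for Serpina3n, where it was above GDM-LF 1. The genes were picked on these libraries and the share of all tested genes with that order was not counted. Nothing is read from it. Of the 6 genes, Orm1 and Steap4 kept a difference of over 2 between the diets without the K libraries, and both rest on few reads.

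Markers of other cells varied between the libraries, in orders that only partly matched that of the set. The summed scaled value of 15 acinar markers was 613440 in GDM-LF 2, against 41281 in GDM-LF 1, 35912 in GDM-LF 3 and 25030 to 209400 in the other 9 libraries, with no marker at 0 in any library. With the acinar level of each library as a covariate, the GDM-LF minus Lean-LF difference was 2.59 for C3, 2.38 for Orm1, 2.04 for Tnfaip6, 1.55 for Lcn2, 1.47 for Steap4 and 0.11 for Serpina3n. The summed value of 9 stellate and fibroblast markers was 7816 in GDM-LF 1, 1022 in GDM-LF 2 and 799.7 in GDM-LF 3, against 393 to 1376 elsewhere. Collagens made up most of the sum in GDM-LF 1 (Col3a1 4358, Col1a1 1519 and Col1a2 978). Lum (204) and Acta2 (69.6) were also highest there, while Pdgfra (75.6) and Rgs5 (38.8) lay within the range of the other libraries. Dcn was high in both GDM-LF 1 (362) and GDM-LF 2 (493), against at most 134 in the other 9 libraries. GDM-LF 1 and GDM-LF 2, the highest 2 libraries for most of the 6 genes, thus differed in acinar markers and collagens but shared high Dcn.

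Duct markers were high in the same 2 libraries as the set. The summed value of 8 duct markers was 1760 in GDM-LF 1, 1649 in GDM-LF 2 and 518 in GDM-LF 3, against 195 to 807 in the other 9 libraries, and no duct marker was at 0 in a GDM-LF library. Spp1, a secreted phosphoprotein that macrophages also make, accounted for most of the sum, with 1332 in GDM-LF 1 and 943 in GDM-LF 2. Krt19, a duct keratin, had scaled values of 243, 404 and 178 in GDM-LF and 22.4 to 199 elsewhere. The part of duct and of stellate and fibroblast RNA in the levels of the 6 genes was not tested. In bulk RNA, a change in the number of cells of a type and a change in RNA per cell cannot be told apart.

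Markers of immune, liver and fat cells gave a mixed picture. Of 11 neutrophil markers, Mpo and Ltf were at 0 in all 12 libraries, and the summed value lay between 2.04 and 29.8 in GDM-LF and between 1.60 and 8.08 in the other groups. Most of the sum in GDM-LF 2 was S100a9, at 22.7 there, 2.64 in GDM-LF 1, 0.583 in GDM-LF 3 and at most 6.92 outside GDM-LF. S100a8 was 5.05 in GDM-LF 2 and at most 0.869 outside GDM-LF. S100a9 was the only neutrophil marker to pass the filter on low values. The summed value of 9 macrophage markers was 61.0, 481 and 224 in GDM-LF and 11.5 to 327 elsewhere, so it was low in GDM-LF 1, where Lcn2, C3 and Tnfaip6 were high, and highest in GDM-LF 2. Most of the sum in GDM-LF 2 was Lyz2 (265) and Cd14 (106), and Cd14 is also on the acute phase list. None of the other macrophage markers was highest in GDM-LF 2. Csf1r, for example, was 22.5 there and 40.0 in Lean-LF 3, and Tyrobp was 27.5 there and 44.5 in GDM-HFS 1. The summed value of 9 hepatocyte markers was 13533 to 15643 in GDM-LF, 7149 to 8902 in Lean-LF, 9697 to 14014 in Lean-HFS and 13948 to 24163 in GDM-HFS. Most of it was Fgb, a fibrinogen chain, at 6975 to 23680, while Alb reached at most 10.5 and Ahsg was at 0 in all libraries but Lean-HFS 2. The summed value of 8 adipocyte markers was 322.5 to 482.8 in GDM-LF, above Lean-LF (159 to 238) and Lean-HFS (160 to 279) and overlapping with GDM-HFS (227 to 401). Within that list, Cidec had 219, 399.7 and 229 and Fabp4 73.0, 57.0 and 65.0 in GDM-LF, while Retn was at 0 in every library and Plin1 did not exceed 0.753. The part of these cells in the levels of the 6 genes was not tested.

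**Figure D4:**
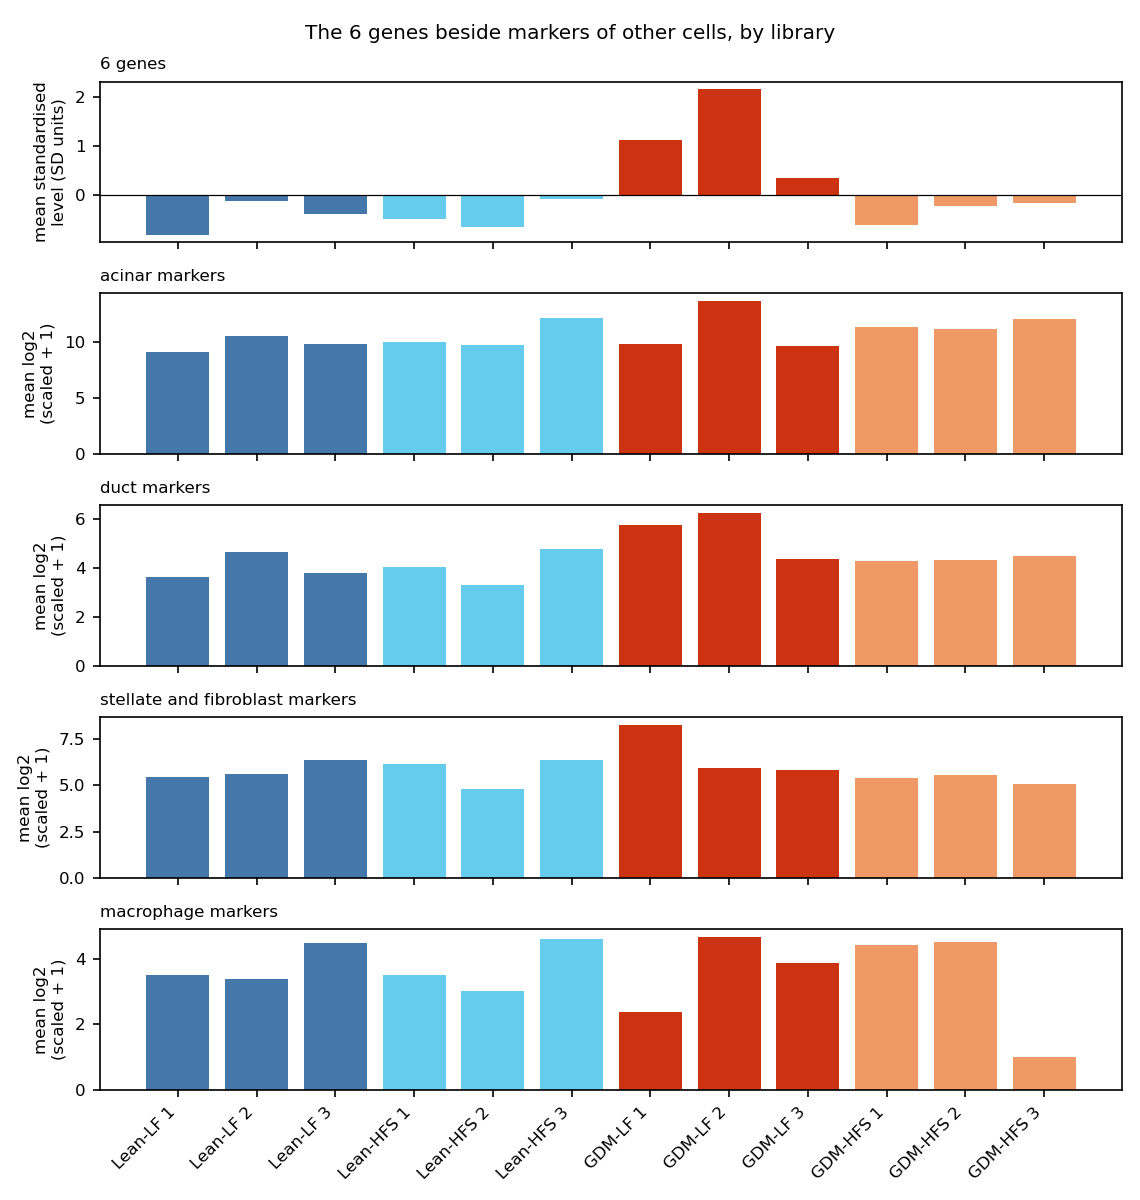
Mean level of the 6 genes in each library, each gene standardised over the 12 libraries (top, SD units), above the mean log2(scaled value + 1) of acinar, duct, stellate and fibroblast, and macrophage markers. GDM-LF 1 and GDM-LF 2 stand at 1.13 and 2.17 SD units for the 6 genes, and GDM-LF 2 has the highest acinar bar while GDM-LF 1 has the highest stellate and fibroblast bar.

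Within the set, 5 genes varied together over the libraries and Serpina3n stood apart. Over 12 libraries, Pearson's r of the log2 values was 0.61 to 0.94 for the 10 pairs without Serpina3n, with the highest value for Lcn2 and C3. It was 0.44 to 0.89 over the 11 libraries without GDM-LF 2. The 5 pairs with Serpina3n had r of 0.44 to 0.56 with all libraries, and of -0.34 to 0.24 without GDM-LF 2. These correlations are descriptions, since the genes were chosen for a shared pattern and all points share the depth and makeup of their library.

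The 8 genes outside the set whose log2 values followed the mean of the 6 most closely over 12 libraries were Ccl17 (r = 0.97), Ifit1 (0.97), Cyp7b1 (0.96), C1r (0.95), Ier3 (0.95), Birc3 (0.94), Irf7 (0.94) and Ptgs2 (0.94). They include a chemokine (Ccl17), interferon-induced genes (Ifit1 and Irf7), a complement protease (C1r), an inhibitor of apoptosis in NF-kB signalling (Birc3) and the inducible cyclooxygenase (Ptgs2). Ptgs2 had scaled values of 254, 628 and 142 in GDM-LF and 24.0 to 114 in the other 9 libraries. C1r had 128, 367 and 51.6 in GDM-LF and 31.4 to 80.2 elsewhere, so GDM-LF 3 was not above the other groups for it. Without GDM-LF 2, r over 11 libraries was 0.93 for Ccl17 and 0.84 to 0.92 for the other 7. Ccl17 had scaled values of 3.01, 9.26 and 0.583 in GDM-LF and did not exceed 0.576 outside it, so GDM-LF 3 was level with the highest other library. It is near the floor and passed the filter on low values only through GDM-LF 1 and GDM-LF 2.

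The wider pathway was examined in 7 lists of genes outside the set, of which 132 genes were tested. In GDM-LF against Lean-LF, 4 of the 132 rose and none fell, beside 0.851% of all tested genes that rose and 0.729% that fell. Fga, a fibrinogen chain, rose from 63.8 ± 15.4 to 222.7 ± 46.9 (SD, n = 3 each; log2 difference 1.80), and C9, the pore-forming complement component, rose from 18.8 ± 3.25 to 71.1 ± 23.7 (1.82). Nfkbiz, which encodes an NF-kB cofactor needed for Lcn2 induction, rose from 43.2 ± 15.0 to 171.7 ± 68.4 (1.96). Il1a, which encodes interleukin 1 alpha, rose from 0.332 to 22.0 (log2 difference 3.70), with values of 9.41, 49.4 and 7.28 in GDM-LF and 0, 0 and 0.997 in Lean-LF. Il1a was thus near the floor in Lean-LF, and its log2 difference is set in large part by the pseudocount and measures no fold. The adjusted p from limma with Benjamini-Hochberg adjustment was 0.0477 for each of the 4. The count of 4 pathway genes became 19 without Lean-LF 3, 39 without GDM-LF 3 and 0 without any 1 of the other 10 libraries. edgeR called no gene in this comparison, with 48 pathway genes higher (36.4%, beside 13.9% of all genes) and 8 lower (6.06%, beside 14.3%) at an unadjusted p under 0.05. DESeq2 called 34 pathway genes higher and 4 lower (beside 7.83% and 6.43% of all genes it tested).

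By role, the tested genes behaved as follows in GDM-LF against Lean-LF. Of 23 acute phase plasma proteins 1 rose (Fga), and the median log2 difference was 0.77. Of 16 complement components 1 rose (C9), with a median of 0.57. Among the 16 complement receptors and regulators none passed, and the genes of lowest p were C4bpb (log2 difference 1.55, adjusted p = 0.0585, limma) and C4bpa (2.33, adjusted p = 0.0644, limma), chains of the inhibitor C4b-binding protein. Of 32 inducing signals 2 rose (Il1a and Nfkbiz), with a median of 0.57. In that list 23 genes had a positive difference. At an unadjusted p under 0.05 (limma), 11 were higher and 4 lower, beside 13.7% and 12.8% of all tested genes. Stat3 (-0.50), Il6st (-0.53), Il1r1 (-0.54) and Tnfrsf1a (-0.57) were among the genes with a negative difference.

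None of the 18 genes of lipocalin and iron handling passed, and their median was 0.08. The lowest p in that list were those of Steap2, a relative of Steap4 (1.55, adjusted p = 0.0523, limma), and Ftl1, the ferritin light chain (-0.88, adjusted p = 0.0673, limma). The lipocalin 2 receptor gene Slc22a17 had scaled values of 49.3, 90.9 and 134 in GDM-LF and 215, 164 and 129 in Lean-LF, a log2 difference of -0.96, and did not pass. None of the 14 hyaluronan matrix genes passed (median 0.52), where the lowest p were those of Bmp2 (2.13) and Has2, a hyaluronan synthase (1.52). None of the 13 serpins passed (median 0.91), where Serpina11 (2.61) and Serpina6, the corticosteroid carrier (-1.82), had the lowest p.

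Counted at an unadjusted p under 0.05, 40 of the 132 pathway genes (30.3%) were higher and 8 (6.06%) lower in GDM-LF than in Lean-LF, beside 13.7% and 12.8% of all tested genes. Without GDM-LF 2 the share higher was 22% beside 9.41% of all tested genes, and without the K libraries it was 11.4% beside 4.55%. None of the 7 lists was tested as a whole.

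In GDM-HFS against Lean-HFS no pathway gene was called by limma, beside 0.0081% of all tested genes, or by edgeR (0.00811%), and DESeq2 called 3 (beside 3.57%). At an unadjusted p under 0.05, 3 were higher and 3 lower, beside 7.86% and 6.39% of all tested genes. The genes of lowest p were Rbp4, the retinol carrier (log2 difference 1.20), and Fga (1.10), with Cebpd (0.95) and Rela (-0.67) among the inducing signals. In the weaning diet comparison in offspring of lean dams, limma, edgeR and DESeq2 called no pathway gene (beside 0%, 0% and 0.00814% of all genes tested). At an unadjusted p under 0.05, 4 were higher and 1 lower, beside 1.17% and 1.01% of all tested genes. Fga (0.88) and C9 (0.82) were among these 4, so both had positive differences in each of the 3 comparisons given so far. They passed only in the first, while the interaction did not pass for either (limma). In GDM-HFS against GDM-LF the log2 difference was 0.18 for Fga and -0.41 for C9. The mean of Fga was 264.3 ± 106.2 (SD, n = 3) in GDM-HFS and 222.7 ± 46.9 in GDM-LF, so unlike the 6 genes Fga was not highest in GDM-LF.

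In GDM-HFS against GDM-LF limma and edgeR called no pathway gene and no gene at all, while DESeq2 called 2 pathway genes (beside 0.279%). At an unadjusted p under 0.05, 2 pathway genes were higher (beside 4.21% of all tested genes) and 29 lower (22%, beside 5.41%). Without GDM-LF 2, 15 were lower (11.4%, beside 6.02%), and without the K libraries 4 (3.03%, beside 1.4%). The genes of lowest p in each list, none of which passed, included Ptx3, a long pentraxin that binds TSG-6 (log2 difference -3.21), and Hp, haptoglobin (-1.79). The complement genes were Cfb (-2.55), C1s (-1.63), Cd55 (-2.14) and C4bpb (-1.21), and the inducing signals Il1a (-3.09) and Nfkbiz (-1.27). The others were Mmp9, a protease that binds lipocalin 2 (-2.21), Slc22a17 (0.87), Bmp2 (-1.78), Has2 (-1.25) and Serpinh1 (-1.10).

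Cfb, which joins C3 in the alternative pathway, had scaled values of 61.7, 263 and 37.6 in GDM-LF, 17.5, 29.5 and 4.62 in GDM-HFS and 9.55 to 29.1 in the lean groups. Ptx3 had 38.4, 12.4 and 11.7 in GDM-LF and 0 to 8.07 in the other 9 libraries, so it was highest in GDM-LF 1 and not in GDM-LF 2. The interaction called no pathway gene with limma, edgeR or DESeq2, and at an unadjusted p under 0.05, 1 was higher (beside 2.47% of all tested genes) and 19 lower (14.4%, beside 3.44%). The lowest p in that comparison was that of Nfkbiz (-1.81).

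**Figure D5:**
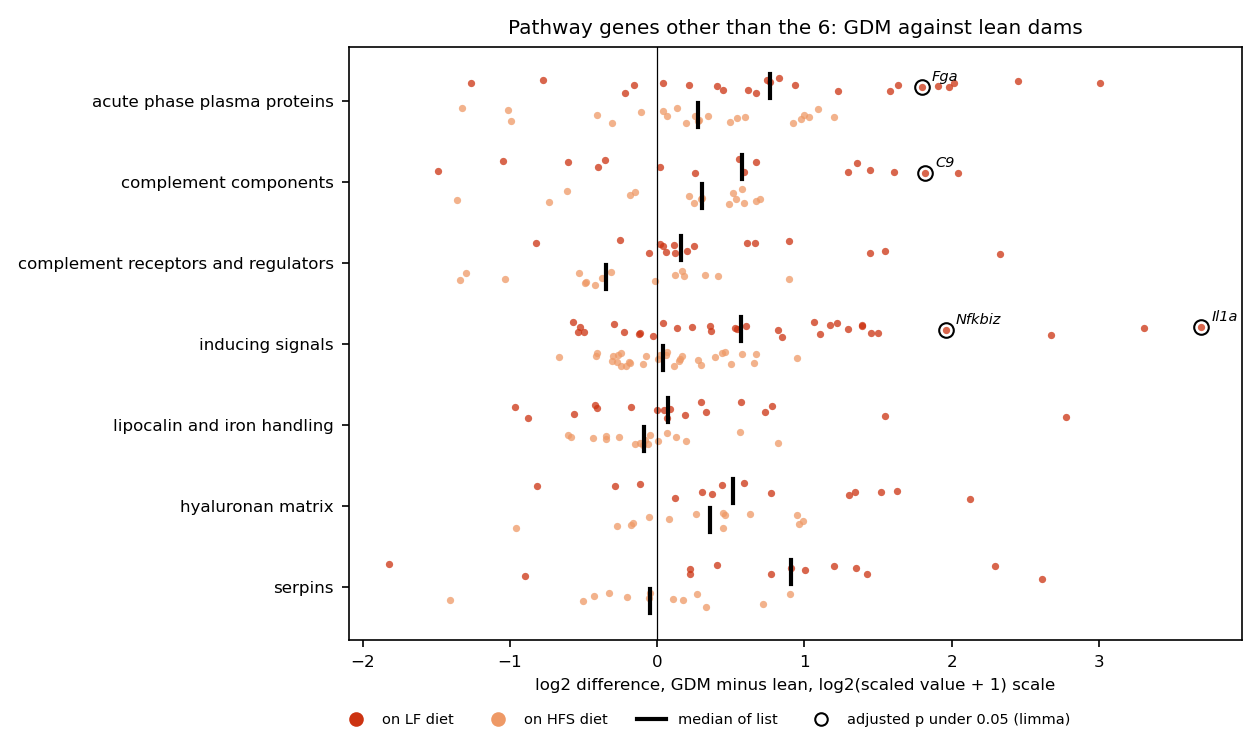
Log2 differences between offspring of GDM and lean dams for the 132 tested pathway genes outside the set, by list (dark points on LF, light points on HFS; vertical bars are the medians of the lists; circles mark an adjusted p under 0.05 with limma). The 4 circled genes are Fga, C9, Il1a and Nfkbiz, all on LF.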

How the data were processed

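Islet RNA of 12 rats was sequenced, and groups and replicate numbers came from the library titles. The submitters' processing notes name STAR 2.5.1b, HOMER 4.9 and DESeq2. Per the file headers, HOMER summed exonic reads for each gene of build rn5 from both strands, with 1 entry per gene, so antisense reads cannot be told apart. The header says FPKM, but what the authors deposited is a depth-scaled signal that was not divided by gene length. Each library's values are multiples of 1 step, and 100% of those up to 1000 reads became whole reads (within 0.1) on division by it. A value of 1 stands for 1.96 to 5.02 reads.

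Libraries were divided by median-ratio factors (0.827 to 1.27, from 11337 genes above 0 in all libraries), and genes whose scaled values averaged 1 or more were tested. The model, 1 mean for each of the 4 groups, was fitted with limma 3.58.1 (R 4.3.3) and a mean-variance trend to log2 of the scaled value plus 1. Each of the 5 contrasts had its own Benjamini-Hochberg adjustment and a threshold of 0.05. edgeR 4.0.16 (quasi-likelihood) and DESeq2 1.42.0 on the recovered reads, without the rRNA entries, were alternatives, and the fit was tested on simulated data. The design had assumed FPKM, and the log-scale test was kept.

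The 6 genes, the pathway and marker lists and the tests were chosen with earlier results of these data known. From each pathway list and contrast the rule named up to 4 called genes or, with none called, the 2 of lowest p. A gene named by this rule is left unreported. Of those without a call, only some are printed for HFS-weaned offspring, offspring of lean dams and the interaction. Of the 164 genes on the lists, 155 matched a table entry by symbol. Like genes were the 8 of highest Pearson r with the mean of the 6 standardised genes, provisional symbols left out. The counts at an unadjusted p, the correlations between the 6 genes, and the printed values of Slc22a17 in GDM-LF against Lean-LF, Cfb, Ptx3, Il6 and A2m were chosen after the values were seen. The same holds for the printed differences of Stat3, Il6st, Il1r1 and Tnfrsf1a. So were the 4 promoter sequences shown and the single marker genes whose values are printed. Promoter sequences are from RefSeq, build GRCr8, matched by symbol for 6 of 6 genes. 26 alternative settings were run.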

Additional observations from a re-analysis of the deposited data

How the results depend on the processing

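The median difference of the 6 genes kept its sign in GDM-LF against Lean-LF under every alternative run (2.21, with 1.83 to 2.81 without any 1 library and 1.41 without the K libraries). For HFS against LF in offspring of GDM dams (-2.54) it was -1.42 with a pseudocount of 5 and -0.77 without the K libraries, and -3.08 to -1.96 without any 1 library. The median interaction (-2.35) was -1.004 without the K libraries. With Rn45s as a covariate, the Tnfaip6 interaction (-2.003) was -3.07. Orm1 and Steap4 rest on few reads, so depth limits both: in GDM-LF against Lean-LF, Orm1 (2.59) was 3.14 with 0.5 and 1.26 with 5.

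The pathway count in GDM-LF against Lean-LF (4) was 0 with a pseudocount of 5, no filter, no mean-variance trend, the K libraries left out, adjustment for the acinar level or the rRNA entry Rn45s, removal of the trend on length, or edgeR. It was 8 on the deposited values without rescaling, 38 with DESeq2 and 0 to 39 without any 1 library. Over all genes the count of 195 ranged from 0 to 1726. DESeq2 called 3 pathway genes in GDM-HFS against Lean-HFS and 2 in GDM-HFS against GDM-LF, where leaving out 1 library gave 0 to 1. The cause was not tested.

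Same-numbered libraries share only a number: r of their deviations was over 0.1 in 5 of 18 pairs (-0.50 to 0.20), and 5 of 12 libraries correlated best with their own number. With the replicate block, 0 pathway genes and 0 genes in all were called in GDM-LF against Lean-LF.

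In offspring of lean dams, the difference of C3 (-0.02) was 0.0060 with a pseudocount of 5, 0.27 after adjustment for Rn45s, 0.10 after removal of the length trend, 0.19 with edgeR and 0.19 with DESeq2, and -0.64 to 0.68 without any 1 library. Serpina3n (-0.05) was 0.16 with Rn45s as a covariate and -0.29 to 0.17 without any 1 library. Single pathway genes also changed sign. With Rn45s as a covariate, Rela was 0.17 and Ftl1 0.094 in GDM-HFS against Lean-HFS. On the deposited values, Cr1l was -0.17 in offspring of lean dams. Without the K libraries, Slc22a17 was -0.11 and Serpinh1 0.16 in GDM-HFS against GDM-LF.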

Other observations

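Il6, which encodes the main inducer of acute phase genes in the liver, and A2m, an acute phase protease inhibitor of the rat, were chosen after their values were seen, and neither passed in GDM-LF against Lean-LF (adjusted p = 0.0532 and 0.0568, limma). Il6 had scaled values of 267, 1481 and 400.3 in GDM-LF, 49.5, 93.1 and 128 in Lean-LF, 43.9, 114 and 108 in Lean-HFS, and 41.3, 188 and 198 in GDM-HFS. All GDM-LF libraries were above the other 9, and GDM-LF 2 was again the highest, but unlike for the 6 genes GDM-LF 3 was above GDM-LF 1. The log2 difference was 2.67 in GDM-LF against Lean-LF and 0.50 in GDM-HFS against Lean-HFS. A2m had 17.7, 6.74 and 7.87 in GDM-LF and 0.455 to 4.49 in the other 9 libraries, so it was highest in GDM-LF 1, as Ptx3 was.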
